A study of Mus musculus with 10 samples.

Results

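The circadian clock genes and the PAR bZIP genes are 10 genes chosen by name: the activators Clock and Arntl (also called Bmal1), the period genes Per1, Per2 and Per3, the nuclear receptor genes Nr1d1 and Nr1d2 (Rev-erb alpha and beta), and the PAR bZIP transcription factor genes Dbp, Tef and Hlf. Where several probe sets carried the symbol of a gene and no other, the brightest by the mean of all arrays stood for it, and all 10 members were found this way among the 19938 genes measured, with no filter on dim values. Dbp and Arntl lie on chromosome 7, Per1, Hlf and Nr1d1 on chromosome 11, Per2 on chromosome 1, Per3 on chromosome 4, Clock on chromosome 5, Nr1d2 on chromosome 14 and Tef on chromosome 15, per the gene table of the assembly GRCm38.p6. By that table Dbp is the only member inside the interval of 30 to 46 Mb on chromosome 7 in which the study looked for candidate genes. The build of the study's own interval is not given in the sources used here. Dbp lies close to the 46 Mb end, so whether it falls inside on another build was not tested.

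Islets, the small endocrine organs within the pancreas, were taken from males of the inbred strains NZO/Hl (NZO here) and C3HeB/FeJ (C3H here), with 5 arrays per strain. NZO mice are prone to obesity and diabetes. The mice of both strains were 6 weeks old, were fed high-fat chow (fat supplying 45% of calories) from day 21 onward, and lived under a light period of 12 hours that began at 6 a.m. The islets of both strains stayed in culture overnight with 10 mM glucose and 15% fetal calf serum before RNA was extracted. The hour at which each mouse was killed or its RNA extracted is not given in the sources used here, and its part in the differences between strains was not tested. Of the array titles, 8 hold 2 numbers, 1 (NZO replicate 4) holds a single number and 1 (NZO replicate 5) spans several, without saying whether RNA was pooled. P-values therefore measure only the spread between these samples, which may be technical in part.

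In nearly all mouse cells the CLOCK and BMAL1 proteins switch on the period, cryptochrome, Rev-erb and Dbp genes through a DNA element called the E-box. PER and CRY proteins then shut CLOCK and BMAL1 off, and the REV-ERB proteins shut the Arntl gene off through an element called the RORE, so that Arntl transcripts run low when Nr1d1 and Dbp transcripts run high. DBP, TEF and HLF carry the rhythm to other genes through an element called the D-box. In the islet, the clock of the beta cell takes part in the timing of insulin secretion.

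The RefSeq promoter table of GRCm38.p6 held 9 of the 10 members, Per2 being the one without an entry. The windows below are shown because Nr1d1, Nr1d2 and Per3 moved together between arrays, Nr1d1 and Dbp differed between the strains, and Tef carries an E-box. Each is the 250 bases before a RefSeq transcript start, 5′ to 3′ on the strand of the gene, and capitals mark a match to the E-box CACGTG, the D-box forms TTATGTAA and TTACGTAA, the RORE cores TAGGTCA and TGGGTCA, or the cyclic AMP response element TGACGTCA, searched on both strands from 250 bases before to 50 after the start.
Nr1d1 (chr11:98775378-98775627, minus strand): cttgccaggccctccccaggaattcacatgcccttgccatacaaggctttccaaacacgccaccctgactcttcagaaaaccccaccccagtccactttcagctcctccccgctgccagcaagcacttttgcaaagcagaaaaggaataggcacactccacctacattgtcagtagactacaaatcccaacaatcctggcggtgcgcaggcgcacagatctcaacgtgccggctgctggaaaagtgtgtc
Nr1d2 (chr14:18239107-18239356, minus strand): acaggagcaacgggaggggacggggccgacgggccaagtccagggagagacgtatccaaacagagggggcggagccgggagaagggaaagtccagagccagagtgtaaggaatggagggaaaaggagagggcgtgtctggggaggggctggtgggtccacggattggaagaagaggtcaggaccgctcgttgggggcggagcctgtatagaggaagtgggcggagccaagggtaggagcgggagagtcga
Per3 (chr4:151044666-151044915, minus strand): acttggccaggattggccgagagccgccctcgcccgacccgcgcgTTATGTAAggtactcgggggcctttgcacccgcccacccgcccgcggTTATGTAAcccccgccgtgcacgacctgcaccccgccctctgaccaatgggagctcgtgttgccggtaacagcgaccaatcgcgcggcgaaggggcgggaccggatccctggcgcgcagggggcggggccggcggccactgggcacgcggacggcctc
Dbp (chr7:45704997-45705246, plus strand): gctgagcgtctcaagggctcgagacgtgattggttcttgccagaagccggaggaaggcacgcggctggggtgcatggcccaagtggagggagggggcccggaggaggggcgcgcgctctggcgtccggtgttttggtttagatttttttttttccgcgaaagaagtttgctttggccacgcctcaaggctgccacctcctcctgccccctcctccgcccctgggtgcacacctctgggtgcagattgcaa
Tef (chr15:81802423-81802672, plus strand): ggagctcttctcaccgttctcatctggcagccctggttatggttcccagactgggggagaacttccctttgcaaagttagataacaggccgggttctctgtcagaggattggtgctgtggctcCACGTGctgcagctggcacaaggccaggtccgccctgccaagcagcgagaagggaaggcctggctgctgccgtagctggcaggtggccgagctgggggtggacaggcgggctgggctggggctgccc

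Per3 held the D-box form TTATGTAA 2 times, beginning 205 and 158 bases before its start, where 0.938% of all 32851 promoter windows of the table hold that form at least once. The E-box CACGTG stood 127 bases before the start shown for Tef, 138 before another Tef start and 166 before a start of Per1, and 7.15% of all windows hold it. Hlf held the element TGACGTCA 9 bases before its start (1.79% of windows). In Arntl the RORE core TAGGTCA (2.61% of windows) began 31 bases after a start, in the stretch ggcagaaagTAGGTCAgggacggag at chr7:113207532-113207556 on the plus strand. The windows of Nr1d1, Nr1d2, Dbp and Clock held none of the motifs searched, and TTACGTAA (0.119% of windows) and TGGGTCA (3.98%) matched no member. A match is a string of letters and was not tested for binding.

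Markers of islet endocrine cells were bright in both strains, and markers of acinar cells, the enzyme-secreting cells around the islets, were higher in NZO. The mean log2 value of 9 beta cell genes was 11.18 to 11.37 on the C3H arrays and 10.37 to 11.31 on the NZO arrays, and that of 22 acinar genes, the acinar score, was 8.05 to 8.93 in C3H and 9.88 to 11.95 in NZO, highest on NZO replicates 4 and 5. Of the acinar genes 21 were higher and none lower in NZO by limma, and of the beta cell genes 3 were lower. Over all genes 5.47% were higher and 4.61% lower, the background for these counts and those below. Of 4 delta and PP cell genes 3 were lower, their mean being 11.50 to 11.69 in C3H and 10.87 to 11.11 in NZO, and of 5 duct genes 2 were higher, at 7.92 to 8.09 and 8.27 to 9.35. Of 5 macrophage genes 2 were higher, of 4 endothelial and 5 stellate and fibroblast genes 1 each, and of 3 alpha cell and 2 lymphocyte genes none differed by the test. The values of RMA have no true zero, so no marker could be called absent. In bulk islets fewer cells of a type and less RNA per cell cannot be told apart. Array medians over all probe sets were 6.93 to 7.05, the highest on C3H replicate 4.

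Nr1d1 and Dbp were lower in NZO islets than in C3H islets, and 7 of the other 8 members had lower means in NZO without passing the test. By limma with Benjamini-Hochberg adjustment over all genes, 2 of 10 members passed, both lower in NZO, where 4.61% of all genes were lower and 10.1% differed in either direction. At an unadjusted p below 0.05, 6 of 10 members were lower and none higher (background 10.5% lower, 21.8% in either direction). The median difference of the members, NZO minus C3H, was -0.26 log2 units, beside a median of -0.02 over all genes, of which 55.2% had a negative difference. The members were named with earlier results of these data known, so these counts describe them and are no independent test.

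Nr1d1 encodes REV-ERB alpha, the heme-binding receptor that represses Arntl. Its log2 values were 10.14, 9.79, 9.70, 9.14 and 9.41 on C3H replicates 1 to 5 and 8.84, 8.97, 8.53, 8.97 and 9.05 on NZO replicates 1 to 5. The strains did not overlap, the lowest C3H array (replicate 4) lying just above the highest NZO array (replicate 5). Nr1d1 was the only member without overlap, where 4.18% of all genes were without overlap and lower in NZO and 4.96% without overlap and higher. The difference was -0.76 (SE 0.16), or 1.69-fold lower in NZO, with a limma adjusted p of 0.00602. It passed without any single array (limma adjusted p 0.00128 to 0.0191) and without NZO replicates 4 and 5 together (-0.85, limma adjusted p = 0.0138). With the acinar score as a covariate it was -1.15 (SE 0.32, limma adjusted p = 0.151), and that covariate alone multiplied the unscaled SE by 2.14.

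Dbp encodes the PAR bZIP factor whose transcript has among the widest daily swings in mouse tissues. Its values were 9.20, 8.70, 8.65, 8.39 and 8.42 on C3H replicates 1 to 5 and 8.54, 8.14, 7.91, 7.95 and 7.66 on NZO replicates 1 to 5. The strains overlapped through NZO replicate 1, which lay above C3H replicates 4 and 5, and C3H replicate 1 was the highest array of all. The difference was -0.63 (SE 0.17), 1.55-fold lower in NZO, with a limma adjusted p of 0.0256. The call was lost when any one of C3H replicates 1 to 3 or NZO replicates 3 to 5 was left out (limma adjusted p 0.0524 to 0.0738, differences -0.50 to -0.64). Without NZO replicates 4 and 5 together it was -0.48 (limma adjusted p = 0.191). Fitted together with the acinar score, Dbp differed by -0.34 (SE 0.35, limma adjusted p = 0.9996).

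**Figure D1:**
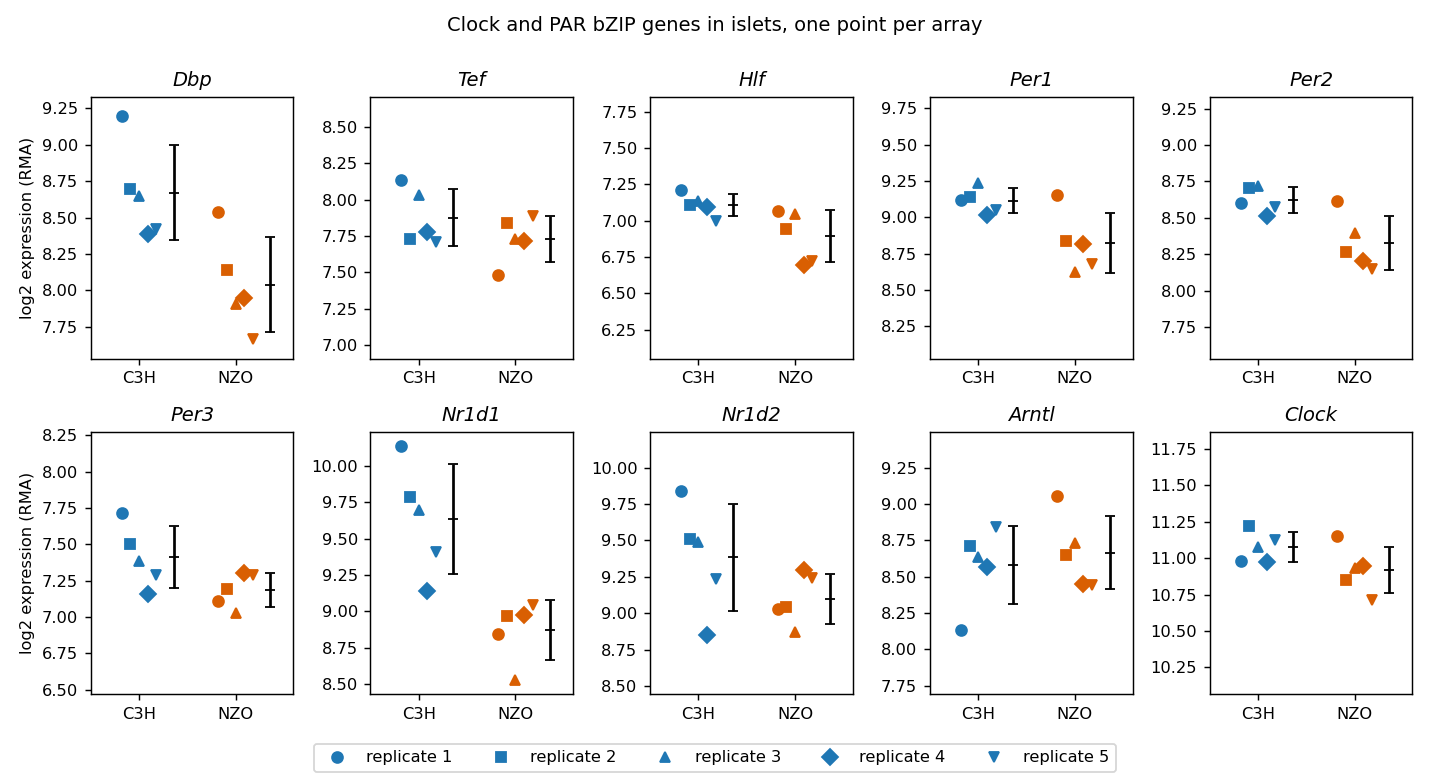
Log2 expression of the 10 members on each array, C3H in blue and NZO in orange, with a symbol per replicate and the mean with SD (n = 5) to the right of each group. Every panel spans the same number of log2 units, and only Nr1d1 has all NZO arrays below all C3H arrays.

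The other PAR bZIP genes differed less. Tef, which encodes thyrotroph embryonic factor, averaged 7.88 ± 0.19 on C3H arrays and 7.73 ± 0.16 on NZO arrays (mean ± SD, n = 5 per strain) and differed by -0.15 (SE 0.10, limma adjusted p = 0.484). It differed by -0.42 (SE 0.21, limma adjusted p = 0.776) with the acinar score in the fit. Its highest array was C3H replicate 1 (8.13) and its lowest NZO replicate 1 (7.48), and the other 8 arrays lay between 7.71 and 8.03. Hlf, which encodes hepatic leukemia factor, averaged 7.11 ± 0.08 in C3H against 6.90 ± 0.18 in NZO and differed by -0.21 (SE 0.09, limma adjusted p = 0.173). Its 2 lowest arrays were NZO replicates 4 and 5 (6.70 and 6.72), the arrays richest in acinar transcripts, and without them the difference was -0.09. The sign of Hlf turned with the acinar score in the fit (0.089, SE 0.18).

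The Rev-erb pair had unequal strain differences on these arrays, which did not pass as a pair after adjustment. Nr1d2, which encodes REV-ERB beta, had values of 9.84, 9.51, 9.49, 8.85 and 9.24 on the C3H arrays and 9.03, 9.04, 8.87, 9.30 and 9.24 on the NZO arrays. It differed by -0.29 (SE 0.15, limma adjusted p = 0.292), by -0.18 without C3H replicate 1 and by -0.79 (SE 0.29, limma adjusted p = 0.403) with the acinar score in the fit. Its strains overlapped through C3H replicates 4 and 5, and without C3H replicate 4 it passed at -0.42 (limma adjusted p = 0.0342). The strain difference of Nr1d1 was 0.47 log2 units further below 0 than that of Nr1d2 (difference of differences -0.47, SE 0.06). Nr1d1 relative to Nr1d2, centred on the mean of all arrays, was 0.16 to 0.28 on the C3H arrays and -0.36 to -0.08 on the NZO arrays, without overlap. The exact two-sided permutation p was 0.00794, the smallest that 5 against 5 arrays can give. After adjustment over the 7 pairs of related members compared it was 0.0556 and did not pass. A single pair at the smallest p cannot pass this adjustment, so the adjusted value cannot decide whether the pair differs. The value was -0.51 to -0.44 when each array was left out in turn and -0.36 with the acinar score as a covariate.

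Among the other related pairs, Dbp against Hlf gave a difference of differences of -0.42 (SE 0.16, exact permutation p = 0.0238, adjusted 0.0833), and Dbp against Tef -0.48 (SE 0.23, exact permutation p = 0.0794, adjusted 0.185). Tef against Hlf and the 3 pairs of period genes gave values between -0.07 and 0.07 (exact permutation p 0.643 to 0.960).

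The period genes were lower in NZO by similar amounts, and none passed. Per1 and Per2 encode the repressors of the feedback loop, and both also respond quickly to hormones and cyclic AMP. Per1 was 9.12, 9.14, 9.24, 9.01 and 9.05 in C3H and 9.16, 8.83, 8.62, 8.81 and 8.68 in NZO, so that a single NZO array, replicate 1, lay within the C3H range. Its difference was -0.29 (SE 0.10, limma adjusted p = 0.0768). Per2 was 8.60, 8.71, 8.72, 8.51 and 8.57 in C3H and 8.61, 8.26, 8.39, 8.20 and 8.15 in NZO, again with NZO replicate 1 alone inside the C3H range, and differed by -0.30 (SE 0.09, limma adjusted p = 0.0564). Without NZO replicate 1 both passed, Per1 at -0.37 (limma adjusted p = 0.0094) and Per2 at -0.37 (limma adjusted p = 0.0105), and both passed with every array centred on its median (Per1 -0.32 and Per2 -0.33). Per2 also passed without C3H replicate 4, with dim genes filtered out, and with a variance that followed brightness. Neither passed with the acinar score in the fit (Per1 -0.14, Per2 -0.027). Per3, whose protein is not needed to keep the rhythm going in mice, was 7.72, 7.50, 7.38, 7.16 and 7.29 in C3H and 7.11, 7.20, 7.03, 7.30 and 7.29 in NZO. The strains overlapped through C3H replicates 4 and 5, and the difference was -0.23 (SE 0.10, limma adjusted p = 0.215), or -0.53 (SE 0.21, limma adjusted p = 0.489) with the acinar score in the fit.

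The 2 activators showed the smallest shifts together with Tef. Clock, bright on every array, averaged 11.08 ± 0.10 on C3H arrays and 10.92 ± 0.16 on NZO arrays and differed by -0.16 (SE 0.09, limma adjusted p = 0.345), with the sign turned when the acinar score was in the fit (0.057). Arntl was 8.13, 8.71, 8.63, 8.57 and 8.84 in C3H and 9.06, 8.65, 8.73, 8.45 and 8.44 in NZO. It was the only member with a higher mean in NZO, by 0.09 (SE 0.14, limma adjusted p = 0.811), and that sign came from 2 arrays. Without C3H replicate 1, its lowest array, the difference was -0.023, and without NZO replicate 1, its highest, it was -0.0094. Adding the acinar score to the fit gave 0.71 (SE 0.23, limma adjusted p = 0.293).

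**Figure D2:**
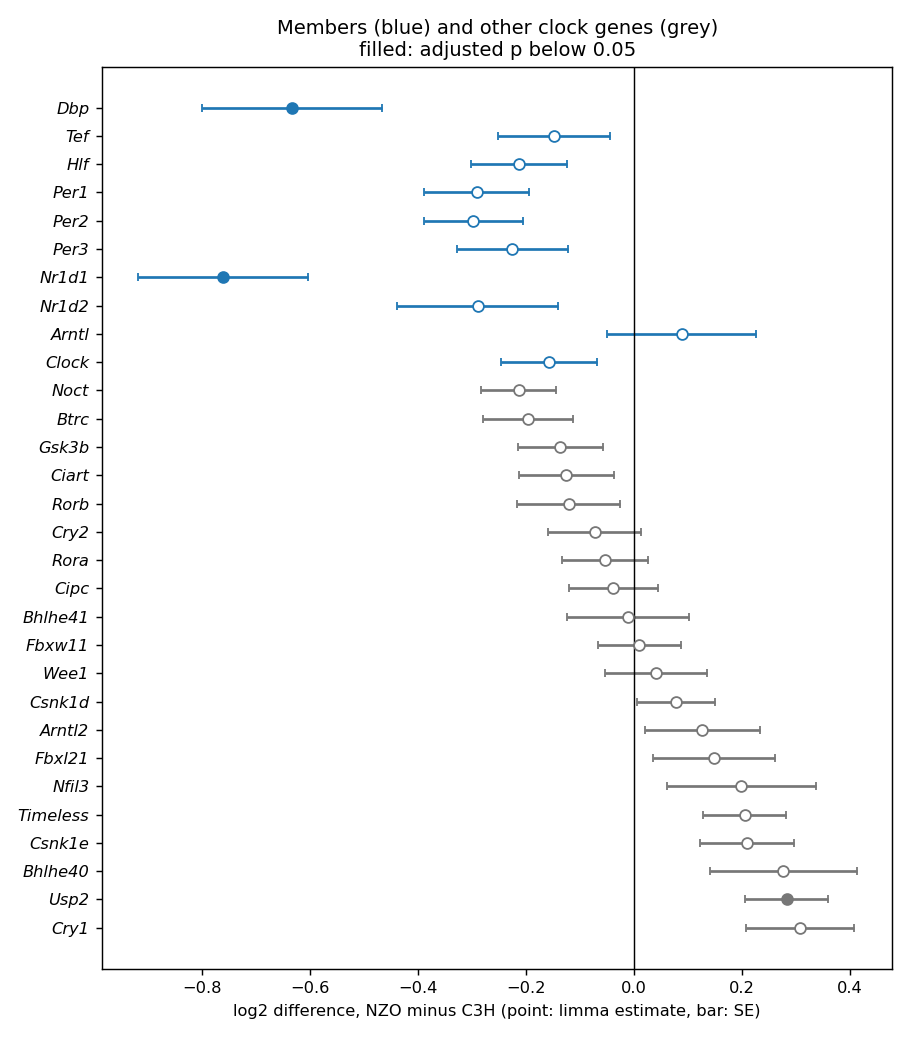
Log2 difference, NZO minus C3H, of the members (blue) and 20 other clock genes (grey), with the SE of limma as bars and filled points for an adjusted p below 0.05. Of the members only Nr1d1 (-0.76) and Dbp (-0.63) are filled, and of the other genes only Usp2 (0.28).

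Other genes of the clock had differences in both directions. Of the 20 analysed, 1 was higher and none lower by limma (background 5.47% higher, 4.61% lower), with 11 positive and 9 negative differences and a median of 0.03. At an unadjusted p below 0.05, 4 were higher and 2 lower (background 11.3% and 10.5%). Usp2, which encodes a deubiquitinase that clocks drive in many tissues, rose from 7.64 ± 0.08 to 7.92 ± 0.11 (difference 0.28, SE 0.08, limma adjusted p = 0.0304). That call was lost when any one of C3H replicates 1, 2, 3 and 5 or NZO replicates 1, 4 and 5 was left out, and with the acinar score in the fit. The cryptochrome genes, partners of the period proteins, were 0.31 for Cry1 (SE 0.10, limma adjusted p = 0.0698) and -0.07 for Cry2 (SE 0.09). Cry1 was 8.28 to 8.55 in C3H and 8.44 to 8.97 in NZO, and passed when NZO replicate 5 was left out. Nfil3, the repressor that competes with PAR bZIP factors for the D-box, was 8.53 ± 0.32 and 8.73 ± 0.19 (difference 0.20, SE 0.14, limma adjusted p = 0.477). Ciart, another repressor of CLOCK and BMAL1, had 2 probe sets, with differences of -0.13 in the brighter one and -0.29 in the other (exact permutation p = 0.190 and 0.0873). The brighter one stands for Ciart in the counts, and whether both lie at the Ciart gene was not tested. Noct, also called nocturnin, and Btrc, a ubiquitin ligase gene, were the 2 lower at an unadjusted p and are named after their values were seen. Noct differed by -0.21 (SE 0.07, limma adjusted p = 0.0710) without overlap between the strains, and it passed without C3H replicate 4, under both brightness filters and with centred arrays. Btrc differed by -0.20 (SE 0.08, limma adjusted p = 0.177) and passed without C3H replicate 4. Npas2 was not analysed here.

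The members differed in how much they varied between arrays of a strain. The SD within strains, pooled over both, was 0.33 for Dbp, 0.30 for Nr1d1, 0.29 for Nr1d2 and 0.26 for Arntl, larger than in 96.9%, 96.0%, 94.9% and 92.3% of all genes. It was 0.13 for Clock, 0.14 for Hlf, 0.14 for Per2 and 0.16 for Per1, larger than in 38.5% to 55.9% of genes, with Tef (0.18) and Per3 (0.17) at 66.6% and 64.8%. The median over all genes was 0.15. In C3H alone Nr1d1 and Nr1d2 spanned 1.00 and 0.99 log2 units between the lowest and highest array, and Per1 and Per2 0.22 and 0.20. In NZO, Dbp (0.88), Arntl (0.61) and Per1 (0.53) spanned most and Per3 (0.28) least.

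Nr1d1, Nr1d2 and Per3 moved together from array to array in both strains. Over the deviations of the 10 arrays from their strain means, Nr1d1 and Per3 had a Pearson r of 0.97 (Spearman rho 0.96), Nr1d2 and Per3 0.96 (rho 0.99), and Nr1d1 and Nr1d2 0.96 (rho 0.95). These 3 pairs of 45 passed an exact permutation test of the arrays within strains after Benjamini-Hochberg adjustment over the pairs (raw p 0.000208, 0.000903 and 0.000625, adjusted p 0.00937, 0.0135 and 0.0135 for Pearson's r), and 12 pairs had a raw p below 0.05. The same 3 passed by Spearman's rho. No share over pairs of other genes was computed, so these counts have no background beside them. Whether such values are particular to clock genes was not tested. Among 9679 genes ranked below, the closest from outside the list reached 0.91 to 0.94 with Dbp and 0.92 to 0.97 with Arntl. With the 2 arrays farthest from the median of Per3 (C3H replicates 1 and 4) left out, its r was 0.91 with Nr1d1 and 0.92 with Nr1d2. With the 2 farthest for Nr1d1 (C3H replicate 4 and NZO replicate 3) left out, Nr1d1 and Nr1d2 had an r of 0.92. After removal of the acinar score as well as strain the values were 0.97, 0.94 and 0.96, and all 3 passed (exact permutation, adjusted p 0.00625 each). Without NZO replicates 4 and 5 they were 0.98, 0.95 and 0.96, but no pair passed with the 720 orders then left (exact permutation, adjusted p 0.0625, 0.104 and 0.0625). A single pair at the smallest p of 720 orders cannot pass the adjustment over the 45 pairs. With single arrays left out, Nr1d1 and Nr1d2 lost the call without C3H replicate 4, and the other 2 pairs kept theirs each time. C3H replicate 1, the array highest for all 3 genes, had the highest acinar score of its strain (8.93).

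In C3H the order of the arrays was the same for these 3 genes. Replicate 1 was the highest for Nr1d1 (10.14), Nr1d2 (9.84) and Per3 (7.72), replicates 2, 3 and 5 followed, and replicate 4 was the lowest for all 3 (9.14, 8.85 and 7.16). Replicate 1 was also the highest C3H array for Dbp, Tef and Hlf and the lowest for Arntl, so it held the extreme of 7 members. Replicate 4 was the lowest C3H array for 7 members. Its median over all probe sets (7.05) was the highest of all arrays. Over the genes tested its median was instead the lowest (7.464, followed by 7.472 on NZO replicate 2). Its 25th percentile over those genes was the highest (6.446, followed by 6.285 on NZO replicate 5). Whether these array-wide values bear on its low member values was not tested. In NZO, replicate 3 was the lowest array for Nr1d1 (8.53), Nr1d2 (8.87) and Per3 (7.03).

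**Figure D3:**
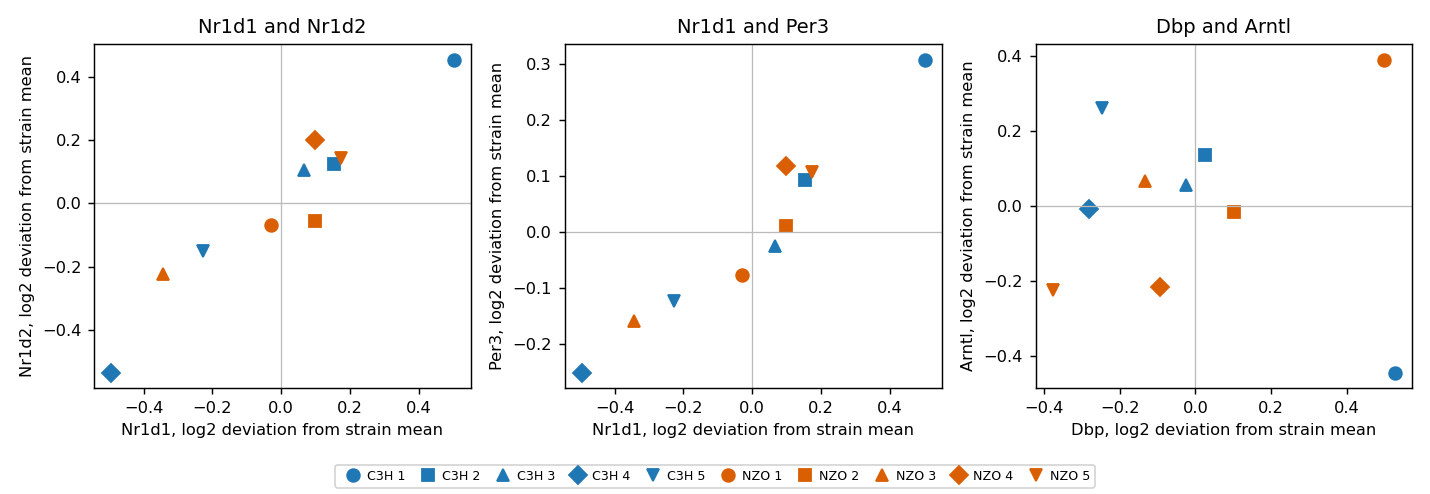
Deviation of each array from its strain mean, in log2 units, for Nr1d1 against Nr1d2, Nr1d1 against Per3 and Dbp against Arntl, C3H in blue and NZO in orange with a symbol per replicate. The first 2 panels form a rising line in both strains, and in the last C3H replicate 1 and NZO replicate 1 stand at opposite ends of Arntl with a high Dbp.

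Dbp and Arntl, whose transcripts run opposite to each other over the day in mouse tissues, had a Pearson r of -0.0089 over the 10 arrays (Spearman rho 0.042, exact permutation p = 0.980 for r and 0.920 for rho). That value rested on single arrays, since r was 0.75 without C3H replicate 1 and 0.22 without C3H replicate 1 and NZO replicate 1. On C3H replicate 1 Dbp was the highest and Arntl the lowest of that strain, whereas on NZO replicate 1 both were the highest of theirs and on NZO replicate 5 both were the lowest. Over the 5 arrays of each strain taken alone, r was -0.85 in C3H and 0.88 in NZO, so values of opposite sign lie behind the r over 10 arrays. The negative r of C3H hung on its replicate 1. On C3H replicates 2 to 5 Dbp was 8.70, 8.65, 8.39 and 8.42 and Arntl 8.71, 8.63, 8.57 and 8.84, with replicate 4 the lowest of these for both genes. Whether the relation differs between the strains was not tested. With each gene centred on its mean over the 10 arrays, Dbp minus Arntl was 1.33 on C3H replicate 1, 0.25, 0.28, 0.09 and -0.15 on C3H replicates 2 to 5, and -0.25, -0.24, -0.56, -0.23 and -0.51 on NZO replicates 1 to 5. The strains did not overlap, the mean being 0.72 log2 units lower in NZO, and 0.48 lower without C3H replicate 1. No test was made of this value, since it joins members chosen with results known.

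The strongest negative relation was that of Tef and Arntl (Pearson r -0.81, Spearman rho -0.79, exact permutation p = 0.00764, adjusted 0.0859), which did not pass, and whose r was -0.57 without C3H replicate 1 and NZO replicate 1. Tef and Clock (r -0.74, rho -0.72, exact permutation p = 0.0198, adjusted 0.143, r -0.61 without C3H replicate 1 and NZO replicate 1) did not pass, but did without C3H replicate 4. Clock and Per2 (r 0.82, rho 0.62, exact permutation p = 0.0121, adjusted 0.109, r 0.49 without NZO replicates 1 and 5) and Clock and Arntl (r 0.74, rho 0.79, exact permutation p = 0.0222, adjusted 0.143, r 0.62 without C3H replicate 1 and NZO replicate 1) did not pass either. Of the 9 pairs with Arntl, 5 had a negative r.

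**Figure D4:**
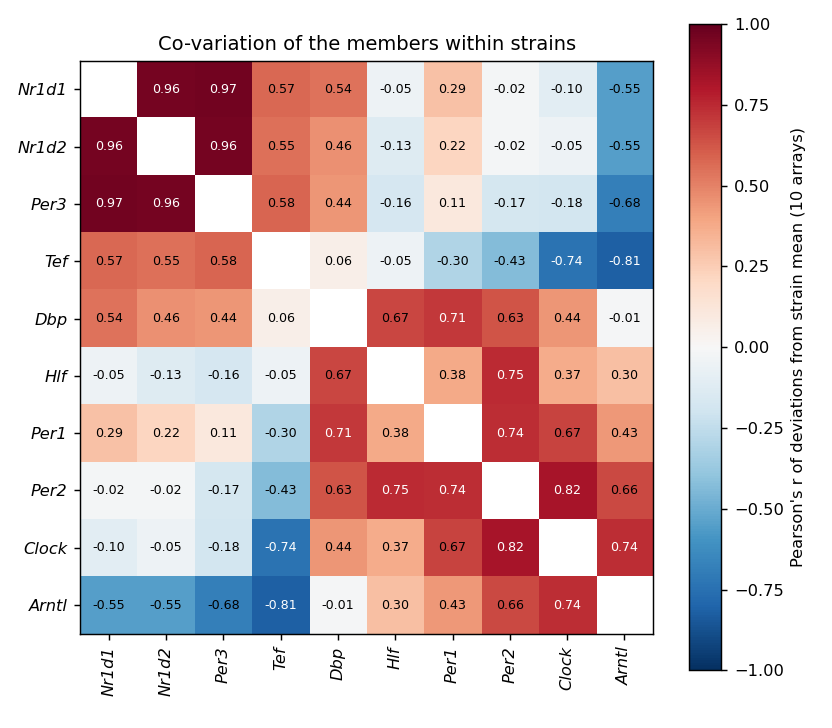
Pearson's r between members over the deviations of 10 arrays from their strain means, from blue (-1) to red (1), diagonal left blank. Nr1d1, Nr1d2 and Per3 form the block at 0.96 to 0.97, and Arntl has its lowest values with Tef (-0.81) and Per3 (-0.68).

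The relation of each member to the acinar score within strains was computed in the same way for the 10 members. Arntl had the largest r (-0.71, rho -0.64, exact permutation p = 0.0140, adjusted 0.140), and -0.62 without NZO replicates 4 and 5, the farthest arrays. No member passed the adjustment. The values of Hlf (r -0.65) and Per2 (r -0.55) rested on NZO replicates 4 and 5, since they were -0.12 and -0.21 without them. Per3 (r 0.52) and Nr1d2 (r 0.51) were 0.40 and 0.43 without them.

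Genes outside the list were ranked by the r of their deviations with those of Dbp or Arntl, among 9679 genes of at least median brightness. Closest to Dbp were Fam217b (r 0.94), Gstz1 (0.93), Tada3 (0.93), Pcgf1 (0.92) and Uxt (0.91), none of which passed between the strains (limma adjusted p 0.153 to 0.781). Closest to Arntl were Il6st (0.97), Zfp457 (0.95), Cabp1 (0.95), Meltf (0.93) and Eno2 (0.92). Of these, Il6st, which encodes the shared receptor chain of the interleukin 6 family, was 0.50 higher in NZO (SE 0.08, limma adjusted p = 0.000616). These 10 were picked for their r over 10 arrays, so no p is given. Among the members bright enough to be ranked, the best placed were Clock at rank 114 for Arntl and Per1 at rank 436 for Dbp. The last placed were Tef at rank 9675 for Arntl and Arntl at rank 7484 for Dbp.

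The gene bodies of 3 members overlap another protein-coding gene in GRCm38.p6, Nr1d1 with Thra, Dbp with Sphk2 and Per3 with Uts2. The probe sets of these neighbours differed by -0.25 for Thra (SE 0.09, limma adjusted p = 0.0815), 0.07 for Sphk2 (SE 0.09) and -0.01 for Uts2 (SE 0.08). Whether any probe of a member lies in the shared stretch was not tested.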

How the data were processed

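Expression was measured on 10 Affymetrix whole-transcript arrays, 5 per strain, from 150 ng of total RNA each with an integrity number above 8, per the labels' protocols. The authors deposited log2 signals, and the submitters' processing notes name RMA and the Affymetrix Expression Console. RMA forces all arrays onto 1 distribution of values and shrinks differences near background. No version, probe set library or build is given in the sources used here. Of 35556 probe sets, 21789 had exactly 1 gene symbol, 1621 had several and 12146 are not named here. The brightest probe set by the mean of the 10 arrays was kept per gene, which left 19938 genes. Strain differences (NZO minus C3H) were tested two-sided with limma (version 3.58.1, R version 4.3.3; lmFit, then eBayes). Genes passed at a Benjamini-Hochberg adjusted p below 0.05 over all genes. Other tests were exact two-sided permutation tests over arrays, within strains for correlations. The limma script was tested on simulated data. The 5 arrays per strain limit the precision of every value. Replicate numbers follow the order of deposition. The labels give no batch. The members and lists were chosen with earlier results of these data known. The genes named are the members, the called genes of the lists, Cry1, Cry2, Npas2, Nfil3 and Ciart, and the 5 genes closest to Dbp and to Arntl. Noct, Btrc, Alas1 and Pdxk were named after their values were seen, and Thra, Sphk2 and Uts2 for their overlap with members. Alternatives were leaving out arrays, the acinar score as a covariate, brightness filters, the mean of probe sets, centring and another variance model.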

Additional observations from a re-analysis of the deposited data

Results flagged for a closer look

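Dbp minus Arntl was 1.33 log2 units on C3H replicate 1, against 0.28 on the next C3H array and -0.15 on the lowest. The gap to the next array was 0.711 of the range of the 5 C3H arrays, just above the limit of 0.710 for a lone value. It was the only one of 56 groups of arrays examined in this way, where chance marks about 1 in 20 groups. On the same array Nr1d1, Nr1d2, Per3, Dbp, Tef and Hlf were the highest and Arntl the lowest of C3H, and its acinar score (8.93) was the highest of C3H.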

How the results depend on the processing

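The difference of Nr1d1 kept its sign in all 18 alternatives and its call in all but the acinar covariate. That of Dbp kept its sign in all 18 and lost its call in 8. For both genes the estimate could not change under the brightness filters, the other variance model and the exact permutation test. Nor could it change under the mean of probe sets, since each member had a single probe set. Those settings bear on the call and not on the sign. Leaving out each array in turn gave 1 to 4 members called (4 without C3H replicate 4 or NZO replicate 1), 0 to 3 other clock genes, 1441 to 2701 genes in all, 3 to 4 pairs, and -0.85 to -0.48 for Dbp minus Arntl. Without NZO replicates 4 and 5 together 1105 genes, 1 member and 0 pairs passed (9 pairs at an unadjusted exact permutation p below 0.05). With the 720 orders then left a single pair at the smallest p cannot pass. The r of the 3 pairs called over all arrays was then 0.95 to 0.98, so their lost calls do not show that they depend on those arrays. With the acinar score as a covariate limma called 195 genes, 0 members and 0 other clock genes. At an unadjusted p below 0.05 that fit had 4 of 10 members and 3 of 20 other clock genes, beside 1423 of all 19938 genes. The signs of Hlf (0.089) and Clock (0.057) turned with that covariate. Arntl ranged from -0.023 to 0.15 with single arrays left out, below 0 without C3H replicate 1 and without NZO replicate 1 (-0.0094). Nr1d1 against Nr1d2 was -0.36 with the acinar score in the fit. Centring gave 4 of 10 members and 2 of 20 other clock genes, beside 2152 of all 19938 genes. The filter at the 25th percentile of brightness gave 3 of 10 members and 2 of 20 other clock genes, beside 2071 of 14953 genes. The filter at the median gave 3 of 8 members and 3 of 16 other clock genes, beside 1714 of 9969 genes. The cause of these changes was not tested. Alternatives for Nr1d1 against Nr1d2 were chosen after seeing the data. No paired analysis was possible because the replicate numbers only follow the order of deposition and pair no samples.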

Other observations

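Of 7 genes that glucocorticoids induce or that bind them, all measured, 2 were higher in NZO by limma and none lower (background 5.47% and 4.61%), with a median difference of 0.04. Sgk1, a kinase gene, went from 7.96 ± 0.13 to 8.30 ± 0.17 (difference 0.33, SE 0.09, limma adjusted p = 0.0378), and Dusp1, a phosphatase gene that stimuli induce within minutes to hours, from 10.47 ± 0.12 to 10.78 ± 0.12 (0.31, SE 0.08, limma adjusted p = 0.0313). Of 6 genes described as PAR bZIP targets 4 were measured and none passed (1 at an unadjusted p below 0.05). Only 2 of the 4, Alas1 and Pdxk, reached the median brightness of all genes, and RMA shrinks differences near background. Alas1, the first enzyme of heme synthesis, differed by -0.23 (SE 0.08, limma adjusted p = 0.0974) and Pdxk, which makes the active form of vitamin B6, by 0.06 (SE 0.07).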
